A study of Homo sapiens with 4 samples.

Results

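The 10 genes described here are PLAAT4 and 9 other genes of retinoid signalling: RARRES1, RARRES2, RARA, RARB, RARG, RXRA, CRABP2, DHRS3 and ALDH1A3. They were found by gene symbol, as every probe set that the platform annotation pairs with 1 of these genes alone. This gave 37 of the 49293 probe sets tested, and all 10 genes had at least 1. PLAAT4 was chosen by its measured change, having been called higher after ARID1A knockdown in these same arrays, and the others were chosen as genes of the same pathway. Its change is therefore a description of what led to its choice, and no fit of this contrast is independent support for it.

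The arrays were Affymetrix Human PrimeView arrays of OE33, an established cell line of oesophageal adenocarcinoma, with 2 arrays per group, described as biological replicates. The ARID1A knockdown group received ON-TARGETplus SMARTpool ARID1A, a pool of siRNAs against a subunit of the SWI/SNF chromatin remodelling complex. The mock group received the ON-TARGETplus Non-targeting Pool. Both groups shared the culture medium with 15% serum, the Lipofectamine transfection at 50 nM siRNA, and harvest at 48 hours. Serum contains retinol, and the labels name no added retinoid. One cell line, 1 siRNA pool and 2 arrays per group limit how far any value below extends.

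Vitamin A enters cells as retinol, which retinol dehydrogenases oxidise to retinal and retinal dehydrogenases of the ALDH1A family oxidise to retinoic acid. Retinoic acid is carried to the nucleus by cellular retinoic acid binding proteins such as CRABP2, and binds the receptors RARA, RARB and RARG, which pair with RXRA or another retinoid X receptor on DNA. Genes induced in this way include enzymes that remove retinoic acid, RARB itself, and the retinoic acid receptor responders, RARRES1, RARRES2 and PLAAT4. In the lining of the oesophagus, retinoid supply is known to bear on the balance between squamous and columnar differentiation.

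The labels were first checked by the targeted gene. The brightest of the 6 ARID1A probe sets, 11719858_a_at, read 7.53 and 7.53 after knockdown and 9.28 and 9.33 in mock on the log2 scale. This left 29.2% of the mock level, and 4 of the 6 passed limma at an adjusted p below 0.05. In all, 156 probe sets passed, or 0.316% of those tested, with 74 higher (0.15%) and 82 lower (0.166%). With each array centred on its median 671 passed, 403 higher and 268 lower. Since the table holds no detection call, the 95th percentile of 359 olfactory receptor probe sets, 5.67, served as a mark for background, with 53.3% of all probe sets above it. Of the epithelial markers 7 of 8 lay above it, all but TFF3, and of the fibroblast markers 0 of 6. CD68 was the 1 of 4 leukocyte markers above it. Of the endothelial markers 3 of 4 (PECAM1, VWF and KDR) lay above the mark, none beyond the 52.8th percentile. The mean of the 4 endothelial markers was 5.50 and 5.47 after knockdown and 5.66 and 5.71 in mock. The 3′ minus 5′ difference of the beta-actin controls, a measure of RNA integrity, was 1.10 to 1.21 after knockdown and 0.995 to 1.04 in mock. That of the GAPDH controls did not separate the groups, at 0.2006 and 0.2153 after knockdown and 0.1994 and 0.2106 in mock. The part of the endothelial readings or of RNA integrity in the results below was not tested.

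PLAAT4, also known as RARRES3, encodes a phospholipase and acyltransferase of the PLAAT family that is induced by retinoids and restrains growth in several epithelial cell types. Its brightest probe set, 11748907_a_at, read 12.09 and 12.20 on the log2 scale after knockdown and 11.26 and 11.00 in mock. The second, 11719692_a_at, read 11.84 and 11.86 against 10.81 and 10.61. Both knockdown arrays were therefore above both mock arrays at each of these probe sets, with gaps of 0.83 and 1.02 log2 units between the nearest arrays of the groups. Knockdown cells had 2.02-fold more signal (95% confidence interval 1.67 to 2.44) at the first and 2.19-fold (1.87 to 2.57) at the second. In limma these are log2 changes of 1.01 (SE 0.109, adjusted p = 0.0499) and 1.13 (SE 0.0920, adjusted p = 0.0299), and 0.15% of all probe sets passed in this direction. More transcript per cell and more cells with the transcript cannot be told apart in RNA of whole cultures. The first lies just inside the threshold, and without probe sets ending in _s_at or _x_at it lies outside (adjusted p = 0.0552) while the second stays inside (0.0383). With any 1 array left out, none of the 49293 probe sets passed, and the change at the first ran from 0.88 without mock replicate 2 to 1.14 without mock replicate 1.

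The third PLAAT4 probe set gave a different reading. 11761419_at read 3.996 and 3.89 after knockdown and 3.83 and 4.09 in mock, below the background mark, and the groups overlapped. Its log2 change was -0.02 with a 95% interval of -0.29 to 0.25. The platform annotation pairs it with the same transcript record as 11748907_a_at, so the same record is represented by a bright and by a dim probe set. The probe positions were not analysed here.

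**Figure D1:**
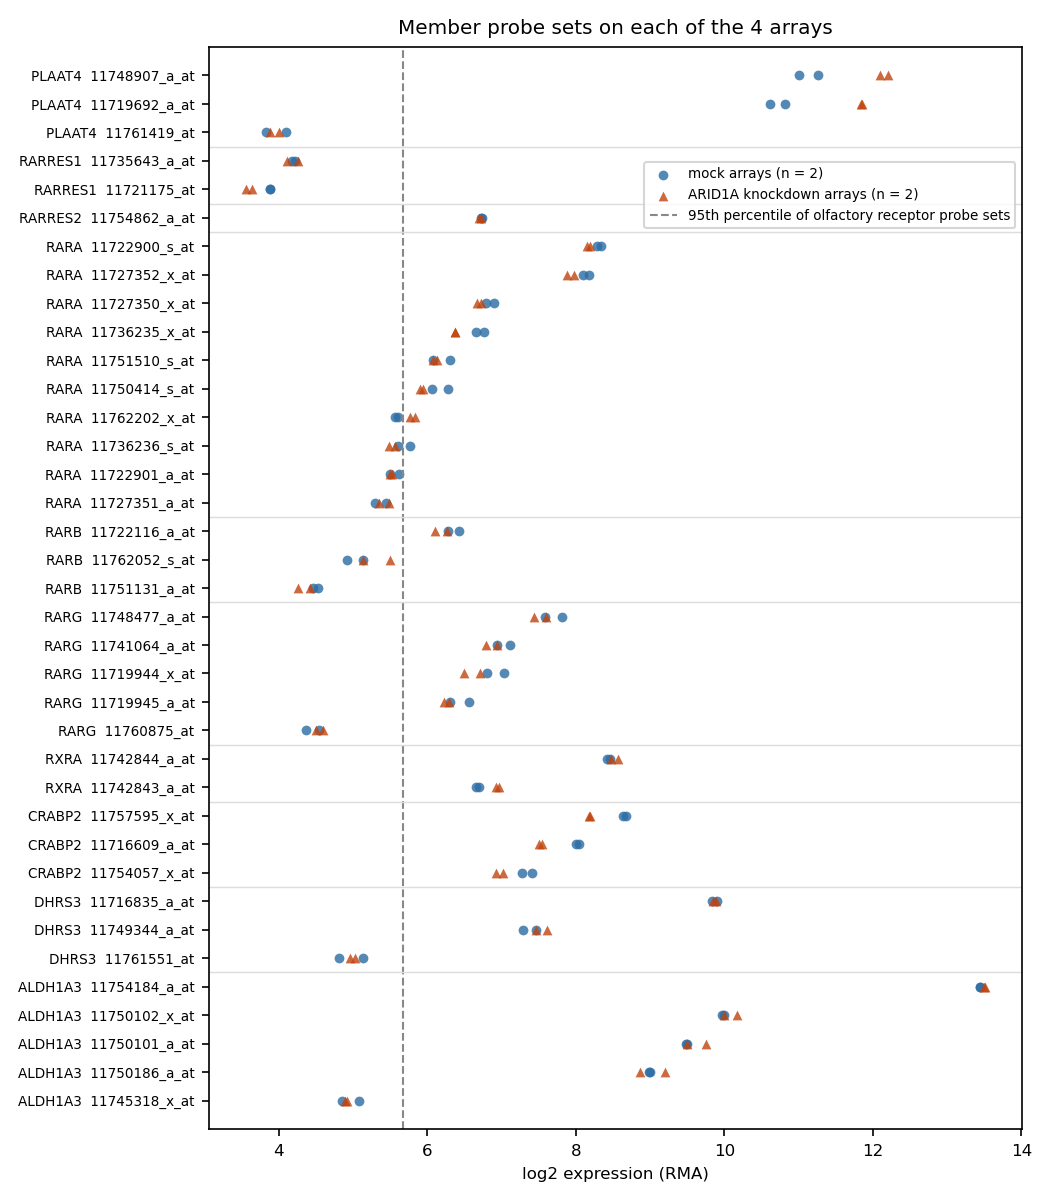
Log2 expression of the 37 member probe sets (rows) on each of the 4 arrays, with circles for the 2 mock arrays and triangles for the 2 ARID1A knockdown arrays; the dashed line at 5.67 is the 95th percentile of the olfactory receptor probe sets. The 2 bright PLAAT4 probe sets are the only rows where the groups stand 0.83 log2 units or more apart, and both RARRES1 rows and the third PLAAT4 row lie left of the line.

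None of the probe sets of the other retinoic acid receptor responders passed the test. RARRES1, a membrane protein often silenced in tumours, had both of its probe sets below the background mark. At 11735643_a_at the knockdown arrays read 4.11 and 4.25 and the mock arrays 4.21 and 4.17, a log2 change of -0.01 with a 95% interval of -0.21 to 0.19. 11721175_at read 3.64 and 3.56 against 3.88 and 3.88, which separates the groups by 0.24 in the opposite direction to PLAAT4 (log2 change -0.28, SE 0.0738). RARRES2, which encodes the secreted chemoattractant chemerin, had 1 probe set, 11754862_a_at. Its readings were 6.72 and 6.69 after knockdown and 6.72 and 6.74 in mock. That is a log2 change of -0.02 with a 95% interval of -0.20 to 0.15, so a change of the size seen at PLAAT4 lies outside the interval.

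CRABP2, the protein that hands retinoic acid to the nuclear receptors, had the most negative changes among the 10 genes, at all 3 of its probe sets. The brightest, 11757595_x_at, read 8.18 and 8.19 after knockdown against 8.64 and 8.67 in mock. At 11716609_a_at the readings were 7.54 and 7.51 against 8.04 and 7.997, and at 11754057_x_at they were 7.02 and 6.92 against 7.28 and 7.42. The knockdown arrays were below the mock arrays at each probe set, with gaps of 0.45, 0.45 and 0.25 log2 units. The levels were 1.39-fold, 1.41-fold and 1.30-fold lower, with log2 changes of -0.47 (SE 0.0709), -0.49 (SE 0.0720) and -0.37 (SE 0.0871). None was past the threshold in limma (adjusted p = 0.0753, 0.0720 and 0.145). The first and second were past it with each array centred on its median (0.0460 and 0.0420), and all 3 were past it when only probe sets above the background mark were fitted (0.0177, 0.0166 and 0.0473) or with a prior that follows intensity (0.00320, 0.00484 and 0.0432). The whole table also had more calls in those settings, 1.36%, 7.33% and 6.51% of the probe sets tested. With quantile normalization none of the 3 was past the threshold in limma (adjusted p = 0.0635, 0.0564 and 0.130). In a fit without probe sets ending in _s_at or _x_at, 11716609_a_at was not past it either (0.0870). Probe sets ending in _x_at hold probes that can match other sequences, and 11716609_a_at is the one of the 3 without such an ending.

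RARA, RARB and RARG encode the receptors of retinoic acid, and RARB is the one best known for being induced by it. The induction runs through a direct repeat of 2 half-sites spaced by 5 bases, and the window of 250 bases before to 50 after an annotated start holds one in RARB and in CYP26A1, the main retinoic acid hydroxylase. The 2 elements are shown because they are the sequences through which the receptors are known to act on these 2 genes, given 5′ to 3′ on the strand of the gene with the half-sites in capitals and 20 bases on either side.
RARB, chr3:25428190-25428246: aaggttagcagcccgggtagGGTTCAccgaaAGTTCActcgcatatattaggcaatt
CYP26A1, chr10:93073783-93073839: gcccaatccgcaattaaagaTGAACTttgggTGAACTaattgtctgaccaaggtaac
The sequences and positions are those of RefSeq on GRCh38.p14. The RARB element begins 53 bases before the start and lies on the strand of the gene, and that of CYP26A1 begins 90 bases before the start and lies on the opposite strand. The half-site searched was AGGTCA, with G also allowed in place of the A and T in place of the later G, on both strands. All members other than PLAAT4 were matched to the promoter table, with 17 windows in all. A direct repeat spaced by 5 bases was found in 1 of these windows and in 0.0883% of all 35116 windows, one spaced by 1 base in 0 and in 0.131%, and one spaced by 2 bases in 0 and in 0.0399%. At least 1 half-site was found in 9 of the 17 and in 38.6% of all. The letters describe these windows and say nothing of binding in OE33 cells.

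Neither RARB nor CYP26A1 had a change past the test. The brightest RARB probe set, 11722116_a_at, read 6.11 and 6.27 after knockdown and 6.28 and 6.43 in mock, so that the groups were set apart by 0.01. Its log2 change was -0.16 with a 95% interval of -0.40 to 0.07, and ran from -0.25 without knockdown replicate 2 to -0.08 without knockdown replicate 1. The other 2, 11751131_a_at and 11762052_s_at, lay below the background mark with changes of -0.16 and 0.29, of opposite sign. CYP26A1 read 3.76 and 3.73 against 3.67 and 3.93 at 11732657_a_at, below the mark and with the groups overlapping (log2 change -0.05, limma adjusted p = 0.856). Over the table, 29 gene symbols had such a repeat in a promoter window and 16 of these had a probe set of their own. Of the 16, 0 passed in limma against 0.403% of all genes, 3 had an unadjusted p under 0.05 against 17% of all genes, and the median change was -0.03.

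RARA, the most widely expressed of the receptors, was covered by 10 probe sets, of which 8 end in _s_at or _x_at. The brightest, 11722900_s_at, read 8.15 and 8.20 after knockdown against 8.34 and 8.29 in mock, a log2 change of -0.14 (SE 0.0735). The largest negative change was at 11736235_x_at, which read 6.37 and 6.37 against 6.66 and 6.76 (log2 change -0.34, SE 0.0772). It was past the threshold in limma when only probe sets above the background mark were fitted (adjusted p = 0.0419). In that setting 7.33% of the probe sets fitted passed. One probe set went the other way with the groups apart, 11762202_x_at, at 5.77 and 5.84 against 5.57 and 5.61 (0.21, SE 0.0740). Across the 10, the knockdown arrays lay below the mock arrays at 6, above them at 1 and overlapped them at 3, where 22.5% of all probe sets lay below and 24.2% above. RARA therefore had readings of both signs, and the probe sets without a shared ending, 11722901_a_at and 11727351_a_at, lay below the background mark with changes of -0.05 and 0.05.

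RARG, the main retinoic acid receptor of stratified epithelia, had 5 probe sets. Its brightest, 11748477_a_at, read 7.60 and 7.43 after knockdown and 7.59 and 7.82 in mock, with the groups overlapping (log2 change -0.19, SE 0.110). With 1 array left out this ran from -0.30 without mock replicate 1 to -0.07 without mock replicate 2. The most negative was 11719944_x_at, at 6.71 and 6.49 against 6.80 and 7.03 (-0.31, SE 0.117). Here the spread within each group, 0.21 and 0.23 log2 units between its 2 arrays, exceeded the 0.09 that separated the groups. The remaining 3 had changes from -0.17 to 0.09, the positive one below the background mark. Over the 3 receptor genes, 14 of 18 probe sets had a negative change and the median was -0.16, against a median of -0.0025 over all probe sets. None passed in limma with all probe sets fitted, and these probe sets are not independent, since those of a gene read the same transcripts.

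RXRA encodes the partner that all 3 receptors bind DNA with, and both of its probe sets read higher after knockdown. 11742843_a_at read 6.92 and 6.97 after knockdown against 6.70 and 6.66 in mock, a log2 change of 0.27 (SE 0.0721). The brighter one, 11742844_a_at, read 8.57 and 8.47 against 8.42 and 8.46, which sets the groups apart by only 0.01 (0.08, SE 0.0770), and its change ran from 0.03 without knockdown replicate 1 to 0.13 without knockdown replicate 2. Neither passed in limma.

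ALDH1A3, which makes retinoic acid from retinal, and DHRS3, which turns retinal back into retinol and is itself induced by retinoic acid, had small changes at bright probe sets. The brightest of ALDH1A3, 11754184_a_at, read 13.50 and 13.51 after knockdown and 13.44 and 13.44 in mock. It outranked 99.6% of the table, and its log2 change was 0.07 with a 95% interval of -0.10 to 0.24. The next 3 had changes of 0.10, 0.13 and 0.04, and the last, 11745318_x_at, lay below the background mark at -0.05. Another probe set, which the annotation pairs with ALDH1A3 and a second gene, was not counted.

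DHRS3 read 9.85 and 9.89 after knockdown and 9.90 and 9.84 in mock at 11716835_a_at, its brightest. The groups overlapped and the change was -0.002 with a 95% interval of -0.18 to 0.18. Its second probe set, 11749344_a_at, read 7.46 and 7.62 against 7.47 and 7.29, a change of 0.16 with the groups overlapping. The third lay below the background mark, with a change of 0.02.

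**Figure D2:**
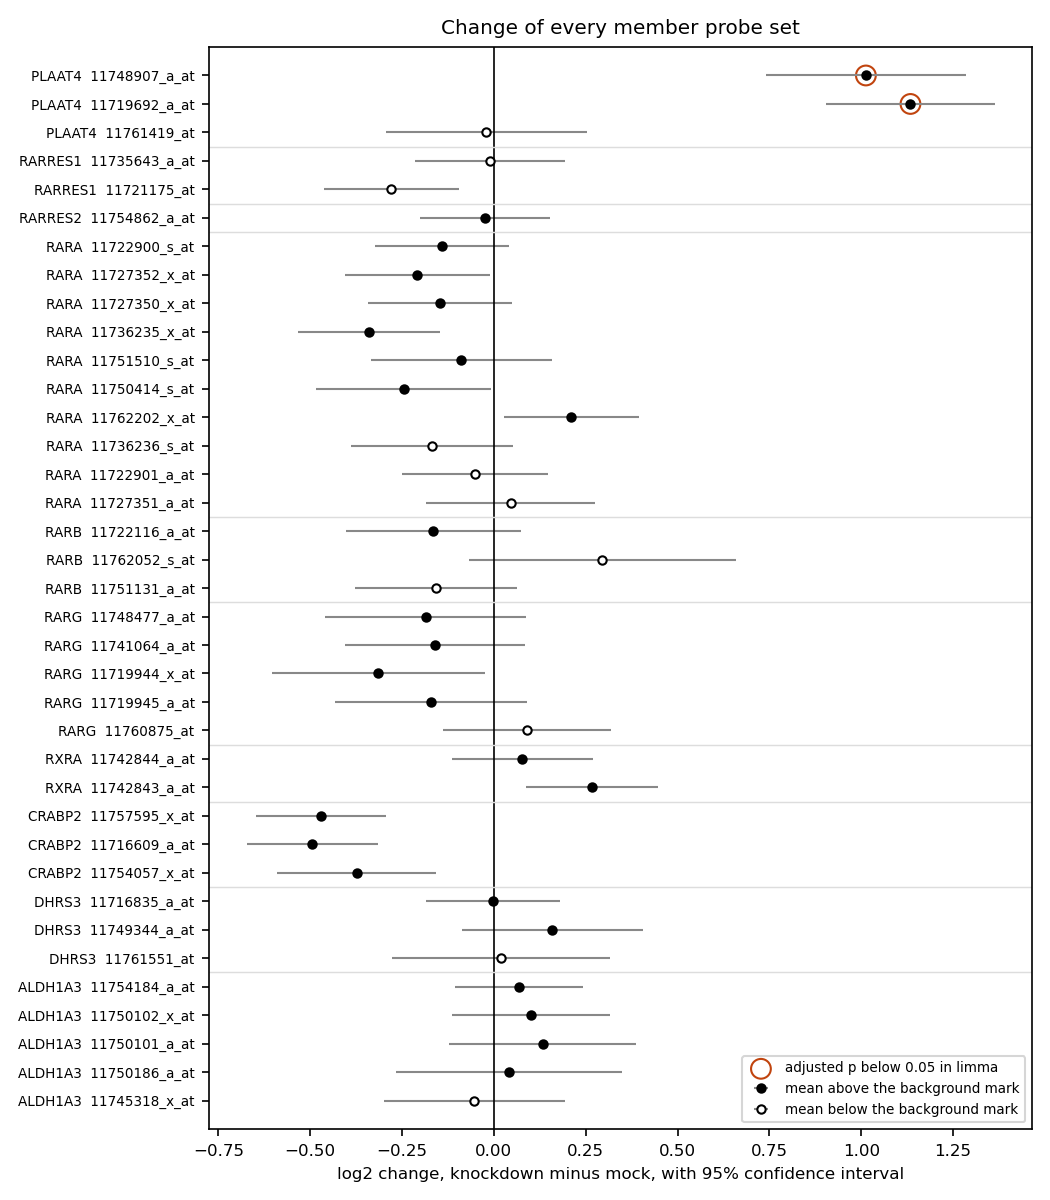
Log2 change (knockdown minus mock) of each of the 37 member probe sets with its 95% confidence interval from limma; filled points have a mean above the background mark of 5.67, open points below it, and rings mark an adjusted p below 0.05. Rings stand on the 2 bright PLAAT4 probe sets at 1.01 and 1.13, and the 3 CRABP2 points, from -0.49 to -0.37, are the farthest to the left.

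By count, 2 of the 37 member probe sets were called in limma, both of PLAAT4, where 0.316% of all probe sets were. Of the 34 probe sets of the other 9 genes, 0 passed, and an unadjusted p under 0.05 was found for 2 with a positive and 8 with a negative change. Over all probe sets 9.1% and 7.07% had such a p in these directions. The number called was 4 of 37 with the arrays centred (1.36% of all probe sets), 2 of 37 with quantile normalization (0.603%), 6 of 26 with dim probe sets left out (7.33%), 5 of 37 with the intensity prior (6.51%) and 1 of 23 without probe sets of shared endings (0.0659%). The knockdown arrays lay above the mock arrays at 8 of the 37 and below at 15, where 24.2% and 22.5% of all probe sets did so (46.7% in either direction). Nothing is read from these counts, as the members were chosen with this contrast in view.

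PLAAT4 lies on chromosome 11 at 63536808 to 63546458 (GRCh38.p14) beside other genes of its family, in the order PLAAT5, LGALS12, PLAAT4, PLAAT2, PLAAT3. PLAAT3 encodes a phospholipase A abundant in fat cells and PLAAT2 a close relative of PLAAT4. PLAAT3 read 13.03 and 13.02 after knockdown against 12.70 and 12.65 in mock at 11721665_a_at, and 6.64 and 6.71 against 6.31 and 6.28 at 11741020_a_at. These are log2 changes of 0.35 (SE 0.0720, adjusted p = 0.119) and 0.38 (SE 0.0733, adjusted p = 0.111). PLAAT2, with a mean below the background mark, read 5.62 and 5.60 against 5.31 and 5.12 at 11734396_at (log2 change 0.39, SE 0.0911, adjusted p = 0.145). So the knockdown arrays were above the mock arrays at every probe set of PLAAT2 and PLAAT3 and at 2 of 3 of PLAAT4, which was chosen by its change. Over all probe sets 24.2% lay above in this way. At the adjusted p-values above, no probe set of PLAAT2 or PLAAT3 was past the test. The brighter PLAAT3 probe set was past it in limma when only probe sets above the background mark were fitted (adjusted p = 0.0322). The same held with the intensity prior (0.000339). In those settings 7.33% and 6.51% of the probe sets tested passed. Members of this family are similar in sequence, and whether probes of one also bind transcripts of another was not tested.

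The neighbourhood was looked at after these values were seen. Of the 12 nearest protein-coding genes, 6 on either side and each at its brightest probe set, 0 passed in limma and 5 had an unadjusted p under 0.05, where 17% of all genes did. Of the 6 genes that follow PLAAT4, the knockdown arrays were above the mock arrays at 5 (PLAAT2, PLAAT3, ATL3, RTN3 and ZFTA), with changes from 0.12 to 0.39, and below them at the farthest, SPINDOC, with a change of -0.12. Over all genes 25.8% lay above in this way and 23.6% below. RTN3, a reticulon of the endoplasmic reticulum, lay above at all 7 of its probe sets, which read the same gene, with changes from 0.11 to 0.24. The 6 genes before PLAAT4 had changes from -0.25 to 0.03, with the knockdown arrays below at 3 and above at 0, and 1 of them had a mean above the background mark. PLAAT5, the family member on that side, had a change of -0.08 and lay below it.

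**Figure D3:**
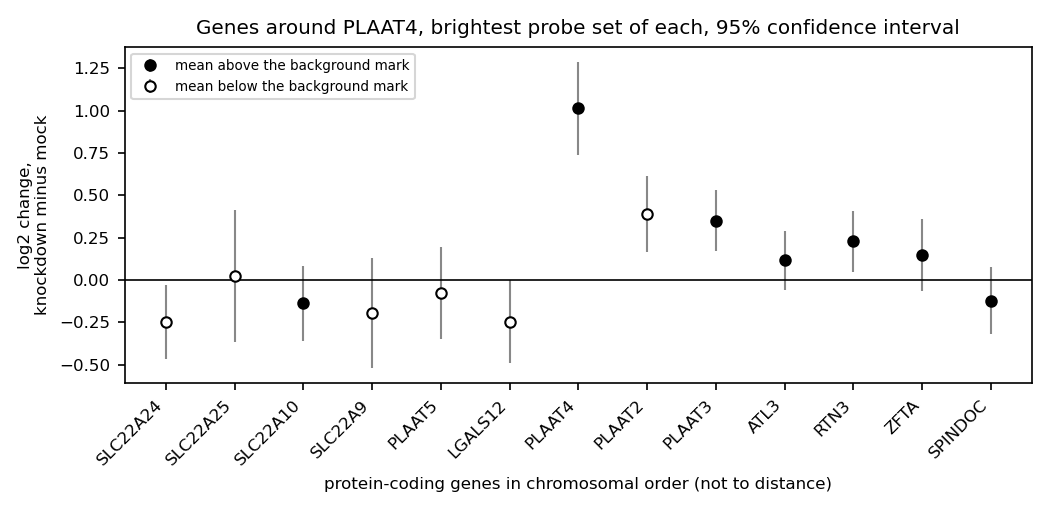
Log2 change (knockdown minus mock) with its 95% confidence interval for PLAAT4 and the 6 nearest protein-coding genes on either side, in chromosomal order and not to distance; filled points have a mean above the background mark of 5.67. PLAAT4 stands at 1.01, and of the 6 genes to its right 5, from PLAAT2 to ZFTA, lie between 0.12 and 0.39 and the last, SPINDOC, at -0.12.

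Beyond the 10 genes, a list of 95 genes of retinoid handling and response was read at the brightest probe set of each, and 83 had one of their own. In limma 0 of the 83 passed, where 0.403% of all genes did, 0.188% higher and 0.215% lower. Without adjustment, 13 had a p below 0.05 with a positive change and 9 with a negative one, where 9.76% and 7.25% of all genes did. The median change was -0.04 against -0.004 over all genes. With dim probe sets left out 9 of 40 passed, 4 higher and 5 lower, where 7.88% of all genes left did. AKR1B10, PLAAT3, PRKCH and RDH10 were higher, and DHRS9, NRIP1, PPARD, RAI14 and TNFAIP2 lower. With the intensity prior 12 of 83 passed, 7 higher and 5 lower, where 8.63% of all genes did. These were the same 9 genes with KRT13, RDH11 and TGM2, which were higher. With the arrays centred 1 of 83 passed (1.58% of all genes), with quantile normalization 0 of 83 (0.761%) and without shared endings 0 of 79 (0.0719%).

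Among the 7 partners of the receptors and related nuclear receptors, PPARD, a receptor of fatty acids, had the largest change, at 7.24 and 7.08 after knockdown against 7.63 and 7.64 in mock (log2 change -0.47, adjusted p = 0.0970). Its other 2 probe sets had changes of -0.15 and -0.09. The retinoid X receptor RXRB had a change of 0.08 at its brightest probe set and from -0.15 to 0.15 at the others. NR2C1 had 0.13 at the brightest and from -0.18 to 0.12 at the others. NR2C2 had -0.15 with the knockdown arrays below and, at its other probe set, 0.18 with them above, so that no one direction can be given for these 3 genes. Among the 6 corepressors and coactivators, NRIP1, a corepressor that retinoic acid induces, read 9.50 and 9.73 against 10.06 and 10.07 (-0.45, adjusted p = 0.129), and its second probe set had a change of -0.46. The coactivator NCOA1 had a change of 0.21 and from 0.04 to 0.20 at the others. The Mediator subunit MED1 had -0.17, and -0.11 and 0.05 at the others, and NCOA2, below the background mark, -0.06. No gene of either group passed at the adjusted p-values given here. PPARD and NRIP1 passed in limma with dim probe sets left out and with the intensity prior. They did not pass with the arrays centred (adjusted p = 0.0554 and 0.0927) or with quantile normalization (0.0889 and 0.0918).

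The 11 genes of uptake, binding and storage had changes from -0.21 to 0.22, with a median of 0.02, and none passed. STRA6, the receptor that takes up retinol, had a change of 0.16 at its brightest probe set, and of 0.16, -0.10 and -0.07 at the others. FABP5, a fatty acid binding protein that can also carry retinoic acid, had a change of -0.21, and the retinol binding protein RBP7, below the background mark, of 0.22. The acyltransferase DGAT1 had readings of both signs, 0.14 with the knockdown arrays above and -0.09 with them below.

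The 23 measured genes of the group around the making of retinal and retinoic acid had changes of both signs, 6 positive and 17 negative. The group also holds the retinal binding protein gene RLBP1 and enzymes that can run the other way. Over all 18132 genes, 8816 changes were positive and 9314 negative. Of the 23, 8 lay above the background mark. Changes were more often positive among these 8 and mostly negative among the genes below the mark. AKR1B10, an aldo-keto reductase that reduces retinal, read 10.49 and 10.27 after knockdown against 9.94 and 9.87 in mock (log2 change 0.48, adjusted p = 0.119). RDH10, the retinol dehydrogenase that leads the way to retinoic acid, read 8.18 and 8.29 against 7.88 and 7.92 (0.33, adjusted p = 0.145). DHRS9, another enzyme that oxidises retinol, read 9.76 and 9.83 against 10.17 and 10.16 (-0.37, adjusted p = 0.115). The alcohol dehydrogenase ADH7 had changes of -0.37 and -0.02, both below the background mark. The 4 hydroxylases of the degradation group had changes from -0.06 to 0.07, all with overlapping groups, and of these only CYP26B1 lay above the mark.

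Genes known to be induced by retinoic acid did not share one direction, with 11 positive and 13 negative among 24 and a median of -0.02. Of the 24, 15 lay above the background mark. Changes were more often positive among these 15 and more often negative among the genes below the mark. TNFAIP2, a gene induced by TNF as well as by retinoic acid, read 7.90 and 7.88 after knockdown against 8.37 and 8.37 in mock at its brightest probe set (log2 change -0.48, adjusted p = 0.0736). Its other probe sets had smaller changes, from -0.27 to -0.07, some with the groups overlapping. At the brightest, TNFAIP2 was past the threshold in limma with each array centred on its median (adjusted p = 0.0448). It was also past it with dim probe sets left out (0.0169) and with the intensity prior (0.00394). PRKCH, a protein kinase C of epithelia, read 9.77 and 9.87 against 9.44 and 9.35 (0.42, adjusted p = 0.111). RAI14, an actin-associated protein, had changes of -0.35 and, with the groups overlapping, 0.06, and the mucosal keratin KRT13 from 0.26 to 0.27 at its 3 probe sets. Among the relatives and receptors of the responder proteins, LXN, a homologue of RARRES1, had changes of 0.26 and 0.01. CMKLR1, the receptor of chemerin, had -0.33 at its brightest probe set and from -0.24 to 0.06 at the others. All of these lay below the background mark.

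**Figure D4:**
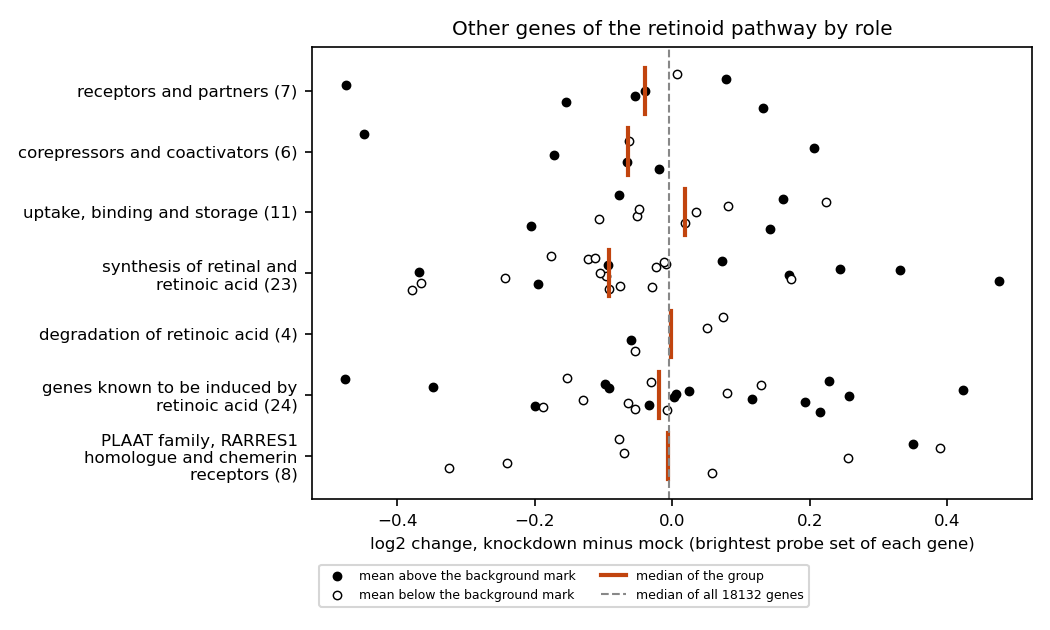
Log2 change (knockdown minus mock) of the 83 measured genes of the retinoid pathway other than the 10 members, by role with the number of genes in brackets; filled points have a mean above the background mark of 5.67, bars are group medians, and the dashed line is the median of all 18132 genes. All points lie between -0.48 and 0.48, on both sides of the line, and the group medians run from -0.09 to 0.02.

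The pattern of PLAAT4 over the 4 arrays was set against that of every other gene as the Euclidean distance between their log2 values at 11748907_a_at, each centred on its own mean. The 5 nearest genes were ELF5, ACSM3, DSC2, HOPX and S100A4, at distances of 0.0573, 0.0586, 0.0882, 0.0933 and 0.105. None of the 5 is a gene of the retinoid list, and nothing is read from this. The distance grows with any difference in the size of change. The list genes, at their brightest probe sets, had changes only between -0.48 and 0.48. The second PLAAT4 probe set, which reads the same gene, lay farther off than any of the 5, at 0.143. The distance is a description over 4 arrays of 2 groups, with no test. ELF5, an epithelial transcription factor, read 8.99 and 9.08 after knockdown and 8.15 and 7.96 in mock, and DSC2, a desmosomal cadherin, 9.59 and 9.74 against 8.78 and 8.62.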

How the data were processed

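The authors deposited a log2 value for each probe set on each array. RMA and Partek are named, per the submitters' processing notes, without version or role. The log2 scale rests on that and on the range of the values. As usually run, RMA sets the arrays to a common distribution, so a change in total mRNA cannot be seen. It also understates changes of dim probe sets. The medians of the deposited values still differed between arrays, from 5.893 in mock replicate 1 to 5.929 in mock replicate 2. Scan dates and genome build: not given in the sources used here.

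The 79 control probe sets were left out of 49372. Symbols came from the platform annotation, checked by Entrez identifier against RefSeq (GRCh38.p14), and 44988 probe sets had 1 gene, 1832 several and 2473 none. Knockdown was compared with mock by limma 3.58.1 (lmFit, eBayes) under R 4.3.3 in a two-sided test of the 4 arrays, with Benjamini-Hochberg adjustment over 49293 probe sets and a threshold of 0.05. All adjusted p-values are from such fits, with 2 residual degrees of freedom, or 1 with a fixed replicate block or an array left out. An exact permutation test of 2 against 2 arrays cannot go below 0.333. P-values measure the spread between these arrays, with the variance of each probe set drawn by eBayes toward that of all probe sets. In the main fit this prior had 3.62 degrees of freedom. A gene was represented by its brightest probe set, by the mean over the 4 arrays.

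Named were all member probe sets, ARID1A, up to 4 genes per pathway group with the smallest unadjusted p, and the 5 genes nearest to PLAAT4. CYP26A1, the PLAAT neighbours and single readings of named genes follow from these or were added after their values were seen. The members and lists were chosen with earlier results of these data known. Of 95 listed genes, 12 had no probe set of their own and were not analysed here. The labels do not say that arrays of the same number share a culture or day. Alternatives tried were 2 scalings, filters on dim and shared probe sets, an intensity trend, fixed and random replicate blocks (the correlation of the latter computed from the residuals and averaged over probe sets) and leaving out each array.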

Additional observations from a re-analysis of the deposited data

How the results depend on the processing

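Direction held at PLAAT4 and ARID1A in all 13 alternative settings. In most of these it could not turn, since the filters, intensity trend and replicate blocks leave the log2 change of a given probe set as it is. Only the scalings and leaving out 1 array could move the changes of these 2 genes. Leaving out 1 array gave changes of 0.88285 to 1.14205 for PLAAT4 and -1.80331 to -1.75121 for ARID1A, with 0 probe sets, 0 member probe sets and 0 pathway genes past the threshold each time. With the replicate block PLAAT4 (1.01) and ARID1A (-1.78) kept their size but not their call (adjusted p = 0.255 and 0.217), and 0 probe sets and 0 member probe sets passed. The random replicate block (correlation -0.288) left 30 probe sets, 0 member probe sets and no call for PLAAT4 (1.01, adjusted p = 0.0939). Deviations of arrays with the same number correlated at -0.202, so a crossed pairing was added after the data were seen, and this crossed replicate block gave 0 probe sets and 0 member probe sets past the threshold, ARID1A (-1.78) and PLAAT4 (1.01) included. These blocks leave 1 residual degree of freedom when fixed, and a call lost there is not a smaller change.

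Of all probe sets 671 passed with the arrays centred, 297 with quantile normalization, 1926 above the background mark, 23 without shared endings (PLAAT4 1.01) and 3209 with the intensity trend. For member probe sets the counts were 4, 2, 6, 1 and 5, and for pathway genes 1, 0, 9, 0 and 12. For the other single members, each at its brightest probe set in the setting, 107 of 116 values kept sign and call. Of the rest, 3 gained a call, all of CRABP2. Both genes whose sign turned were near no change and past the threshold in neither setting. DHRS3 gave 0.00075 when centred, and 0.0154 and 0.0294 without knockdown replicate 1 and mock replicate 1. RARRES1 gave 0.0128 under quantile normalization, and 0.0587 and 0.0086 without the same arrays. With each array left out in turn, DHRS3 ran from -0.03295 to 0.02942 and RARRES1 from -0.07818 to 0.05873. Of the 37 member probe sets, 9 turned sign and another 16 moved by over 1.5 times when some 1 array was left out. The number of arrays and, for RARRES1, RARB and CYP26A1, a signal near background limit these values.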
